A study of Mus musculus with 12 samples.

Results

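The baseline transcriptome of normal dermal fibroblasts was described from 4 of the 12 arrays of the series, those of fibroblasts from wild-type skin. Genes were ranked by their mean log2 signal over these 4 arrays. Each gene was read from its brightest probe set among those paired with exactly 1 gene symbol, which gave 18193 genes, 9010 of them with several such probe sets. The mice were 7-week-old males with a PDGFRα-H2B-eGFP allele, a reporter that makes a fluorescent histone where the gene for PDGF receptor alpha is active. All 3 groups of the series carry this allele, and the wild-type group has no disease transgene and no treatment in its labels. Strain background: not given in the sources used here. A further 8 arrays, 4 of inflamed and 4 of tumour-associated skin of InvEE mice, were not compared with these. Back skin was cleared of muscle and fat, kept in cold trypsin overnight, stripped of the epidermis between the follicles and digested with collagenases, hyaluronidase and DNase. GFP-positive cells were then sorted, and their RNA was amplified in a single round before labelling with biotin. The reporter marks any cell in which Pdgfra is active, so the sort can hold fibroblasts of all dermal layers. The labels do not say that the 4 arrays came from separate animals, so the standard deviation (SD) measures the spread between these samples, which may be technical.

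Dermal fibroblasts make and turn over the collagen and elastic scaffold of the skin. They secrete procollagens that are trimmed, cross-linked and coated with small proteoglycans outside the cell, and they release the proteases and inhibitors that remodel it. In mouse skin they form a papillary layer under the epidermis, a deeper reticular layer next to the fat, and the dermal papilla and sheath of the hair follicle, where Wnt, BMP and hedgehog signals pass between mesenchyme and epithelium.

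Levels are log2 signals after quantile normalization of the 4 arrays and are given as mean ± SD with n = 4 throughout. Probe sets differ in how well they bind their transcript, so ranks order signals and not transcript amounts, and no fold is given between genes. A gene was counted as high when it was among the top 10% of genes by mean, which held 1819 genes with means from 9.88 to 14.54. A gene was counted as near background when its mean was at or under 6.61, the 95th percentile of 76 olfactory, vomeronasal and taste receptor genes, a class not known to be used in skin fibroblasts. The median of these receptor genes was 4.18, their range was 2.60 to 8.39, and 4 of them lay above the limit. By this rule 6916 genes (38.0%) were near background and 9458 genes (52.0%) were middling. No detection calls were used, so these tiers are descriptions of signal and a gene near background was not shown to be silent. At the upper border Eng (9.88 ± 0.23) was the last gene inside and Cat (9.88 ± 0.55) the first outside. At the lower border Il18 (6.61 ± 0.54) lay just above the limit and Pcdh20 (6.61 ± 0.77) just under it.

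**Figure D1:**
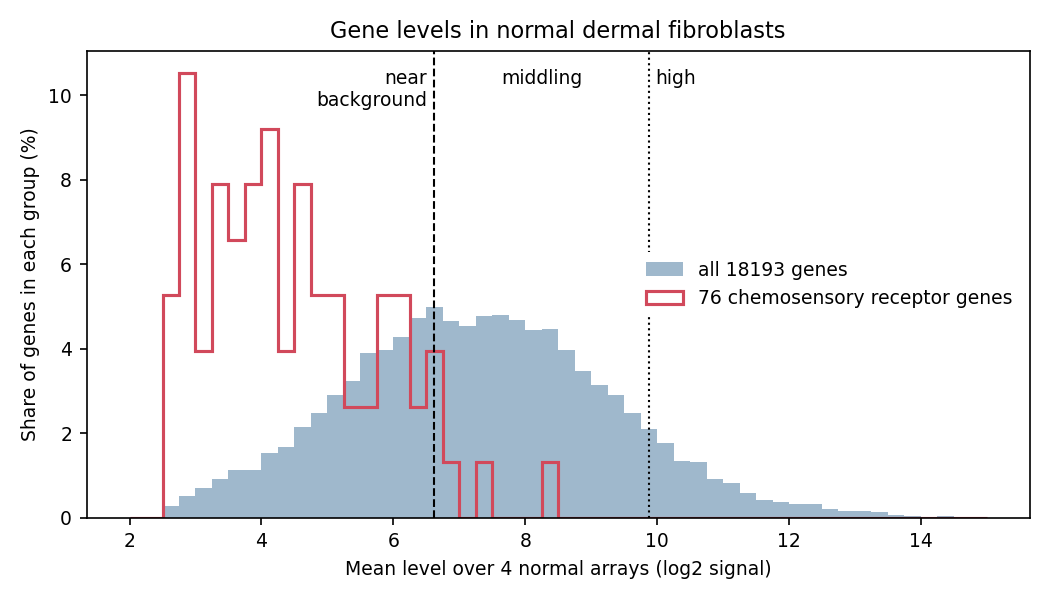
Distribution of mean log2 signals over the 4 normal arrays, as the share of genes per bin, for all 18193 genes and for the 76 chemosensory receptor genes. The receptor genes centre on 4.18, and the dashed and dotted lines mark the limits of 6.61 and 9.88 between the tiers.

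Array 4 stood apart from the other 3, and the values of many, but not all, named genes that it moved strongly are given by array or without it. Without it, 25 of 116 counts of list members that were high or near background changed, 20 of them by 1 gene and none by more than 3. Across genes, Pearson's r was 0.969 to 0.980 among arrays 1 to 3 and 0.929 to 0.933 between array 4 and each of them. Of the 11277 genes above the limit, array 4 was the array farthest from the mean of the others in 5733 (50.8%). It was lower than all other arrays by over 1 log2 unit in 683 of these genes and higher in 378. For arrays 1 to 3 those counts lay between 11 and 96 for lower values and between 31 and 105 for higher values. The 12 probe sets of the poly-A spike RNAs had means of 10.33, 10.23, 9.31 and 12.19 on arrays 1 to 4. The signal of the Gapdh control probe set at the 3′ end exceeded that at the 5′ end by 1.77, 1.86, 1.62 and 2.33 on arrays 1 to 4, with no such rise on array 4 for actin (-0.49, -0.39, -0.49 and -0.42). Other probe sets of a gene often did not share the direction of array 4. Of 1129 genes above the limit that were lower on array 4 than on the mean of the others by over 1 log2 unit, 493 had another probe set above the limit, and in 288 of these (58.4%) all such probe sets were lower too. Of 710 genes that were higher by over 1, it held for 179 of 392 (45.7%). The part of spike amount and RNA quality in the spread was not tested. The median SD was 0.27 in high genes, 0.35 in middling genes and 0.23 in genes near background, and over arrays 1 to 3 alone it was 0.17, 0.25 and 0.17.

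The label of the cells was checked against 16 fibroblast markers, of which 15 were high and 1 was middling. Col1a2 (probe set 1450857_a_at), a chain of the main skin collagen, read 14.52, 14.52, 14.57 and 14.49 on arrays 1 to 4 and ranked at place 2 of all genes. Col1a1 (1423669_at), the other chain of collagen I, read 14.49, 14.46, 14.41 and 14.57, and Col3a1 (1427883_a_at), the collagen of fine fibrils, read 14.08, 14.06, 13.99 and 14.09. Dcn (1449368_at), the proteoglycan decorin on collagen fibrils, read 14.44, 14.44, 14.52 and 14.35. These 4 genes, all near the top of the scale, varied little and in no common direction between arrays. Pdgfra (1421917_at), the receptor whose gene drives the reporter, read 10.31, 9.89, 10.21 and 9.23, with a mean of 9.91 ± 0.49 and of 10.14 without array 4. It lay near the lower border of the high tier, and array 4 gave its lowest value. A further Pdgfra probe set was also lower on array 4, with a difference from the mean of the others of -1.47, while the dimmest of the 3 was higher there by 2.78. Thy1 (12.49 ± 0.05), Cd34 (12.40 ± 0.19), Pdgfrb (11.73 ± 0.12) and Dpt (12.61 ± 0.16), surface and matrix markers of dermal fibroblasts, were all high. The middling marker was Fap, a surface protease of activated fibroblasts, at 9.49, 9.55, 8.99 and 7.20, with a mean of 8.81 ± 1.10 and of 9.34 without array 4. Pi16, a marker of adventitial and deep fibroblasts, was also lowest on array 4, with 11.98, 12.32, 12.37 and 10.30. Of the sex-linked genes, Eif2s3y (9.35 ± 0.52) and Kdm5d (8.92 ± 0.78) of the Y chromosome were middling, and Uty (6.51 ± 0.52) and Xist (5.69 ± 0.17), the RNA of the inactive X, were near background in these male samples.

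The 30 genes with the highest means lay between 13.50 and 14.54 and were mostly matrix, ribosomal and cytoskeletal genes. They were Hnrnpab, Col1a2, Col1a1, Dcn, Sparc, Rpl41, Malat1, AY036118, Rplp2, Rps29, Rps28, Col3a1, Tmsb10, Rpl38, Lgals1, Rpsa, Rpl35, Rpl13a, Rps20, Vim, Aebp1, B2m, Gsn, Rps24, Ahnak, Timp2, Nfix, Tpt1, Selenow and Rarres2. Among them were 3 collagen chains, 10 genes with ribosomal protein symbols, the collagen-binding glycoprotein Sparc (14.34 ± 0.07) and the metalloproteinase inhibitor Timp2 (13.60 ± 0.11). Nfix (13.58 ± 0.15), a nuclear factor I protein, was the transcription factor among them. Hnrnpab, an RNA-binding protein gene, held the first place through 1 of its 7 probe sets (14.54), while the others had means between 7.59 and 10.76. With the mean of all probe sets of a gene, 12 of the 30 genes remained among the first 30. The SDs of the 30 genes were 0.01 to 0.21. Quantile normalization gave all arrays the same set of values, so genes at the top of the scale had little room to vary. How far this set their SDs was not tested.

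The 10 high genes with the smallest SD were Rpsa, Vim, AY036118, Mrpl33, Col1a2, Rps20, Cd81, Tcf7l2, Rpl27a and Amotl1, with SDs between 0.01 and 0.04. Away from the upper end of the scale, Mrpl33 of the mitochondrial ribosome read 10.47, 10.47, 10.52 and 10.48. Tcf7l2, a transcription factor that acts with beta-catenin, read 10.11, 10.17, 10.09 and 10.13, and Amotl1, an angiomotin-family protein, read 10.33, 10.25, 10.29 and 10.33. In these probe sets array 4 was no farther out than the other 3.

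Promoter sequences from RefSeq (build GRCm38.p6, 250 bases before to 50 after a start site) matched 14452 of the 18193 genes, with 18109 promoters in all. The letters TATAAA, which the TATA-binding protein recognises, were on the gene strand in 6.67% of promoters of high genes, 4.03% of middling genes, 9.36% of genes near background and 6.21% of all. The median GC content was 62.0%, 60.7% and 53.3% in the same order of tiers. The last 110 bases before the start are printed for Vim, which was among the steadiest genes, for Fos, a high immediate early gene, and for the heat shock pair Hspa1a and Hspa1b, of which Hspa1b had the largest SD of all high genes. Capitals mark TATAAA on the gene strand, CCAAT or its reverse complement ATTGG, and GAANNTTC, a motif of heat shock elements. These genes and the last 2 motifs were chosen after their values were seen, and both strands were searched for those motifs.
Vim: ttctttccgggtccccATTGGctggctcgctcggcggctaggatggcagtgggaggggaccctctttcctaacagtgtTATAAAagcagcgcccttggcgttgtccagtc
Fos: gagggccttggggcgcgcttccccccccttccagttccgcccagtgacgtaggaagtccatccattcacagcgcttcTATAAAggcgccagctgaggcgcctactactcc
Hspa1a: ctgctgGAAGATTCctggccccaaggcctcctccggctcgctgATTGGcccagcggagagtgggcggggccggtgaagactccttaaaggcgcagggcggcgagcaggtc
Hspa1b: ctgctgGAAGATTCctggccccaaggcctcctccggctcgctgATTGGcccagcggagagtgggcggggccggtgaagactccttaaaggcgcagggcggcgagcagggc
The Vim stretch lies at chr2:13574201-13574310 on the plus strand and Fos at chr12:85473780-85473889 on the plus strand. Hspa1a lies at chr17:34972157-34972266 and Hspa1b at chr17:34959239-34959348, both on the minus strand. TATAAA began 32 bases before the start in Vim (position -32) and at -33 in Fos, and it was not in the printed stretch of the heat shock pair. CCAAT in either direction, found in 37.4% of all promoters, began at -94 in Vim and at -67 in both heat shock genes, and GAANNTTC, found in 6.33%, began at -104 in the pair. The stretches of Hspa1a and Hspa1b differed at 1 of 110 positions, and their full windows at 4 of 300. A match is a description of letters and not a bound site, and a missing match says only that the letters are not in the window.

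Many matrix genes were in the high tier. Of 170 measured matrix genes in 12 lists, 74 (43.5%) were high and 31 (18.2%) were near background, beside 10% and 38.0% of all genes. The shares differed by kind of matrix, as the plot of tiers by list shows.

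**Figure D2:**
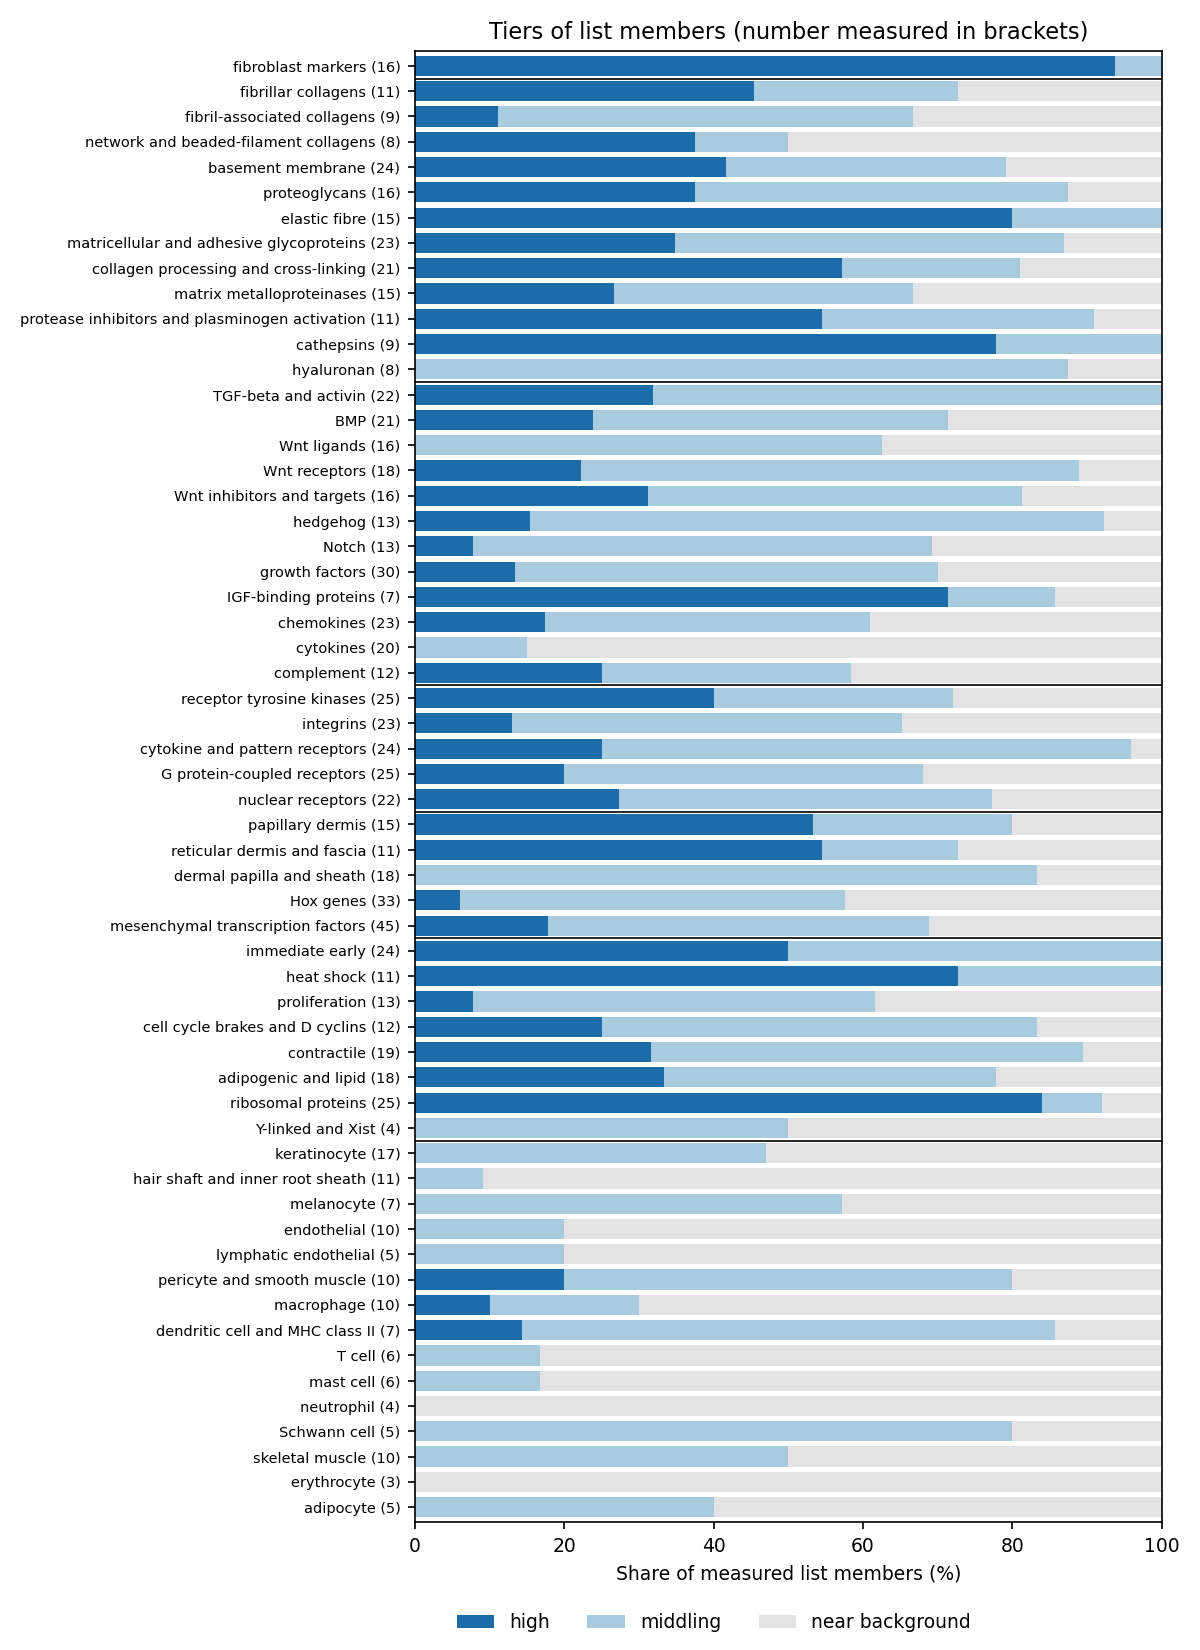
Share of the measured members of each gene list that were high, middling or near background, with the number measured in brackets. Elastic fibre genes (12 of 15 high) and fibroblast markers (15 of 16) lie at the high end, and neutrophil and erythrocyte markers, with none above the limit, at the low end.

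Of 11 fibrillar collagens, 5 were high, and they were the chains of the fibrils of adult skin. Besides Col1a2, Col1a1 and Col3a1, these were Col5a1 (12.94 ± 0.23) and Col5a2 (12.78 ± 0.13), whose collagen V starts fibrils and limits their width. Col5a3 was middling at 9.53 ± 0.15. The cartilage chains Col2a1 (7.34 ± 0.45), Col11a1 (6.51 ± 1.11) and Col11a2 (6.13 ± 0.26) were just above or under the limit, and Col24a1 (4.88 ± 0.37) was the lowest. Col11a1 crossed the limit between arrays, with 5.93, 7.44, 7.42 and 5.23. Of 9 fibril-associated collagens only Col16a1 (12.36 ± 0.12) was high. Col14a1 of fibril surfaces read 8.42, 7.83, 7.57 and 8.98, and Col20a1 read 8.97, 9.08, 8.63 and 10.18, with array 4 highest in both. The other 3 probe sets of Col20a1 were also higher on array 4, but the other 2 of Col14a1 were lower there (-1.28 and -1.76). Col9a1 (5.89 ± 0.29) and Col9a2 (5.46 ± 0.13), of cartilage collagen IX, were the lowest in this list. In the beaded-filament collagen VI, Col6a2 (12.94 ± 0.08), Col6a1 (12.82 ± 0.05) and Col6a3 (10.87 ± 0.27) were high, while the later chains Col6a4 (5.68 ± 0.14) and Col6a5 (4.50 ± 0.07) were near background.

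Basement membrane genes had 10 of 24 members high and 5 near background. Col15a1 (12.35 ± 0.40), Nid1 (12.27 ± 0.13), Col4a1 (11.87 ± 0.12) and Lamc1 (11.55 ± 0.22) led them, with the laminin chains Lamb2, Lama2, Lamb1 and Lama4 and the partner chain Col4a2 also high at 10.15 to 11.11. The collagen IV chains of specialised membranes were lower, with Col4a6 at 5.60 ± 0.27 and Col4a3 at 4.80 ± 0.34. The hemidesmosome collagen Col17a1 (5.27 ± 0.30) and the laminin chain Lamb3 (6.40 ± 0.36), both products of keratinocytes, were near background. Hspg2, the large proteoglycan perlecan, was high but spread over the arrays, with 11.77, 11.05, 10.67 and 12.07. Its other probe set was as bright and hardly varied, with an SD of 0.04.

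Proteoglycans had 6 of 16 members high, among them Dcn, Bgn (13.22 ± 0.10), Lum (12.95 ± 0.08) and Prelp (12.22 ± 0.23), small leucine-rich proteins that bind collagen. The large proteoglycan Vcan was also high at 11.41 ± 0.53. Fmod, fibromodulin of fibril assembly, spread most in this list, with 6.48, 10.41, 9.81 and 7.36, a mean of 8.52 ± 1.89, and 8.90 without array 4. Its other 5 probe sets did not show that spread, with SDs of 0.30 to 0.79. Ogn, osteoglycin, read 9.69, 10.16, 10.43 and 8.23, lowest on array 4, with 10.09 without it. Kera (5.13 ± 0.63) and Epyc (3.89 ± 0.72), proteoglycans of cornea and cartilage, were near background.

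Elastic fibre genes had the largest share of high members of the matrix lists, with 12 of 15 high, none near background and a median percentile of 96.5 among all genes. Mfap4 (13.22 ± 0.25), Eln (12.67 ± 0.37), Fbln1 (12.63 ± 0.11) and Efemp1 (12.30 ± 0.20) led, and elastin itself read 12.72, 12.45, 12.32 and 13.16. The latent TGF-beta binding proteins Ltbp3 (12.00 ± 0.08), Ltbp1 (11.60 ± 0.12), Ltbp4 (11.06 ± 0.43) and Ltbp2 (9.97 ± 0.12), which hold TGF-beta in the matrix, were all high. Emilin1 (8.09 ± 0.10) and Fbn2 (7.81 ± 0.48), a fibrillin made mostly before birth, were the lowest. The list mean was steady over arrays 1 to 4, at 10.85, 10.85, 10.86 and 10.90.

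Matricellular and adhesive glycoproteins had 8 of 23 members high, 12 middling and 3 near background. Sparc, Dpt, Fn1 (12.42 ± 0.05) and Tnxb (12.34 ± 0.27) led, and the growth-responsive Ccn1 was high at 12.14 ± 0.20, although 2 of its 4 probe sets were far lower on array 4 (-2.17 and -1.89). Array 4 was low in several members. Postn, periostin of collagen-rich and stretched tissue, read 11.48, 11.28, 11.57 and 9.17, a mean of 10.88 ± 1.14 and of 11.44 without array 4. Spon1 read 10.50, 10.92, 10.67 and 8.20, and its mean was 10.07 ± 1.26, or 10.70 without array 4. Ccn3 read 8.88, 8.47, 8.58 and 5.50, and its other probe set was likewise lower on array 4 (a difference of -3.78 from the mean of the others). Tnc, tenascin C of wounds, read 7.82, 8.004, 7.45 and 5.40. On arrays 1 to 3 Ccn3 and Tnc were middling, and on array 4 both lay under the limit. Ccn5 went the other way, with 6.92, 7.86, 7.98 and 9.02. Ccn6 (4.16 ± 0.11) and the brain tenascin Tnr (3.54 ± 0.12) were the lowest and hardly varied.

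Collagen processing and cross-linking genes had 12 of 21 members high. Pcolce2 (13.46 ± 0.06) and Pcolce (13.02 ± 0.05), which enhance removal of the procollagen C-propeptide, the collagen chaperone Serpinh1 (13.43 ± 0.20) and the prolyl hydroxylase subunit P4hb (11.37 ± 0.33) led. The cross-linking oxidases Loxl1 (11.23 ± 0.28) and Lox (11.03 ± 0.29) were high, and Loxl3 was middling at 7.59 ± 0.16. Loxl4 was middling with 9.60, 9.15, 9.23 and 11.23, but its other probe set, with a mean of 9.77, was lowest on array 4 (-0.69). The lysyl hydroxylases also differed in tier, with Plod1 (10.74 ± 0.39) high, Plod3 (9.64 ± 0.37) middling and Plod2 (6.16 ± 0.61), which acts on the ends of collagen chains, near background. Tgm2, a transglutaminase, read 9.96, 10.02, 10.14 and 7.87, a mean of 9.50 ± 1.09 and of 10.04 without array 4, and 3 of its other 5 probe sets were lower there too. P3h2 (5.44 ± 0.70) and Adamts3 (4.66 ± 0.39), an N-propeptidase of procollagen, were the lowest.

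Of 15 matrix metalloproteinases, 4 were high and 5 were near background. Mmp2 (13.07 ± 0.17), a gelatinase, its activator Mmp14 (12.88 ± 0.28) and Mmp23 (12.81 ± 0.31) were each highest on array 4. The other probe sets of Mmp2 and Mmp14 were also highest there, but that of Mmp23, with a mean of 10.05, was lowest (-1.18). Mmp3, stromelysin, read 11.55, 11.66, 11.85 and 11.62. The other gelatinase, Mmp9, was at the limit with 6.71 ± 0.25, and Mmp12 (3.28 ± 0.08) of macrophages and the collagenase Mmp13 (2.82 ± 0.27) were the lowest. Among 11 inhibitors and plasminogen activation genes 6 were high, led by Timp2, Serpinf1 (13.49 ± 0.11), Serping1 (13.21 ± 0.07) and Cst3 (12.99 ± 0.32). Timp3 was high at 10.82 ± 0.27, Timp1 middling at 8.61 ± 0.44, and Timp4 near background at 5.49 ± 0.14. Plau, urokinase, was middling at 8.29 ± 0.15. Cathepsins had 7 of 9 members high, with Ctsb (12.53 ± 0.12), Ctsl (12.50 ± 0.25), Ctsk (12.28 ± 0.08), which cleaves collagen, and Ctsh (11.87 ± 0.23) at the top. Ctsc (7.35 ± 0.63) and Ctss (6.69 ± 1.07), found mostly in leukocytes, were the lowest of the 9. Ctss crossed the limit between arrays, with 7.33, 6.40, 7.72 and 5.31.

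Hyaluronan genes had none of 8 members high. The receptor Cd44 read 10.22, 8.32, 8.50 and 8.10, high on array 1, but its other 2 probe sets above the limit were highest on array 3. Tnfaip6 (8.74 ± 0.65), which modifies hyaluronan, and the synthases Has1 (8.67 ± 0.41) and Has2 (8.62 ± 0.17) were middling. Cemip2 (6.63 ± 0.54) was at the limit, and Has3 (5.08 ± 0.31), the third synthase, was near background.

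**Figure D3:**
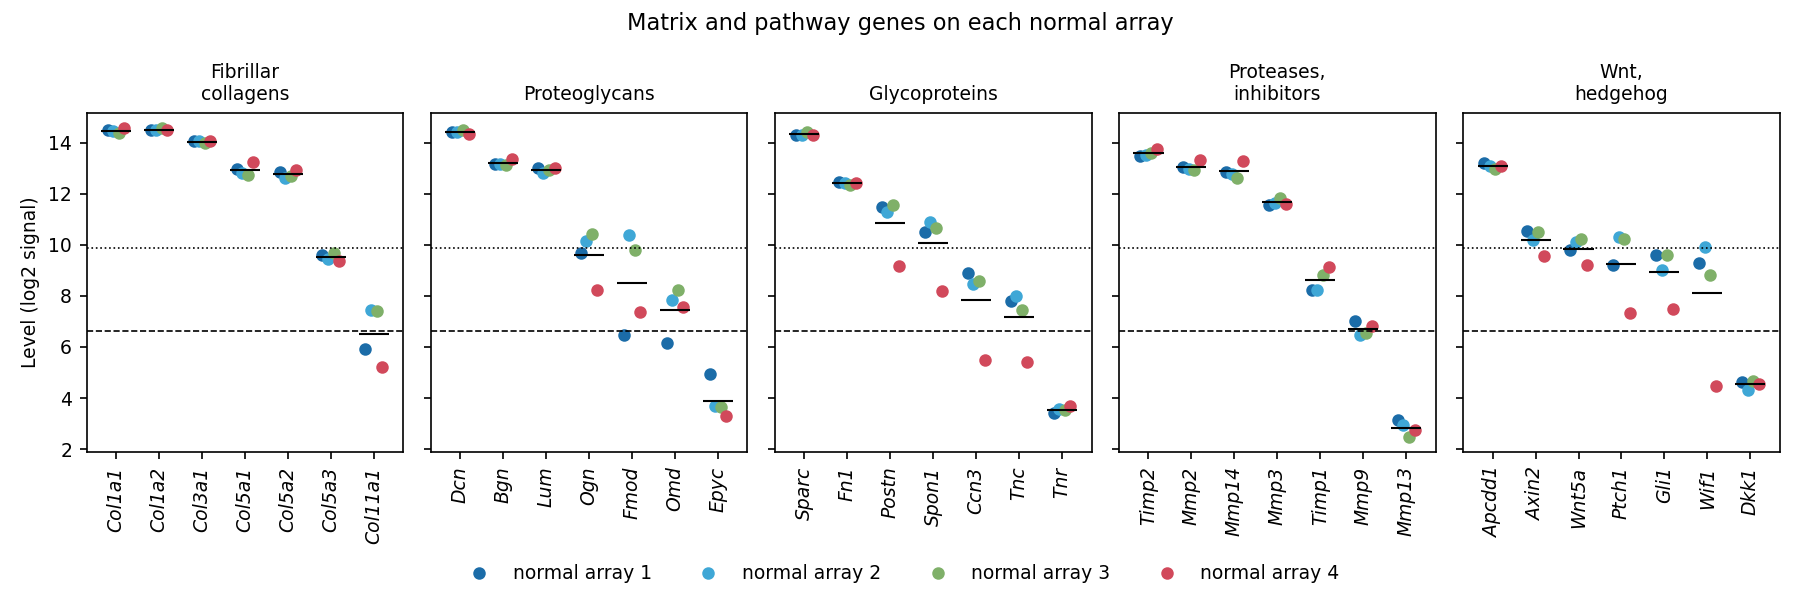
Log2 signal of selected matrix, Wnt and hedgehog genes on each of the 4 normal arrays, with the mean as a bar and the limits of 6.61 and 9.88 as dashed and dotted lines. Collagen I and III and decorin overlap on all arrays, whereas array 4 is low in Postn (9.17), Spon1 (8.20), Ccn3 (5.50), Tnc (5.40), Ptch1 (7.32) and Wif1 (4.49).

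Signalling genes were spread over the tiers. Of 211 measured genes in 12 lists, 40 (19.0%) were high, 108 were middling and 63 (29.9%) were near background. Of all genes, 10% were high and 38.0% near background, and the counts of single lists here and below are to be read beside these shares. All 22 genes of the TGF-beta and activin list were above the limit, and 7 were high. The induced matrix protein Tgfbi (13.38 ± 0.12), the receptors Tgfbr3 (12.16 ± 0.30) and Tgfbr2 (12.03 ± 0.20) and the repressor Ski (11.17 ± 0.13) led. Of the ligands, Tgfb2 (10.33 ± 0.27) was high, and Tgfb3 (8.49 ± 0.17) and Tgfb1 (7.71 ± 0.16) were middling. Inhbb, an activin subunit, read 9.30, 8.64, 9.55 and 6.79, lowest on array 4, but its other probe set was not (0.32 higher there). The activin receptor Acvr2b (7.44 ± 0.12) and the inhibitor Smad7 (7.15 ± 0.61) were the lowest.

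BMP genes had 5 of 21 members high, and array 4 was the lowest array in 13 of the 21. Fstl1 (13.32 ± 0.11), a secreted follistatin-like protein, the target Id3 (11.16 ± 0.17), the ligand Bmp4 (11.05 ± 0.48) and the antagonist Grem1 (10.20 ± 0.85) led. Bmp4 read 11.38, 11.33, 11.15 and 10.35, and Grem1 read 10.80, 10.31, 10.73 and 8.97, with 10.61 without array 4. The receptor Bmpr1a was high at 10.07 ± 0.37, and Bmpr1b (5.49 ± 0.19) and Bmper (3.18 ± 0.45) were the lowest of the list. Nog, noggin, was near background at 6.11 ± 0.20. Id4 read 10.38, 10.69, 10.35 and 6.36, but its other 2 probe sets, with means of 6.42 and 5.81, differed on array 4 by at most -0.16. The list mean was 8.36, 8.47, 8.39 and 7.68 on arrays 1 to 4.

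None of 16 Wnt ligands was high over the 4 arrays, and 10 were middling. Wnt5a, a noncanonical ligand of dermal mesenchyme, read 9.80, 10.10, 10.24 and 9.21, and it was the single ligand in the high tier when array 4 was left out (10.05). Its next brightest probe set was not lower on array 4 (0.06). Wnt5b (8.35 ± 0.70), Wnt11 (8.17 ± 0.27) and Wnt4 (7.79 ± 0.40) followed, and Wnt1 (4.65 ± 0.22) and Wnt3 (4.15 ± 0.26) were the lowest. Receptors had 4 of 18 members high, Lrp6 (10.49 ± 0.17), Fzd2 (10.27 ± 0.25), Ryk (10.20 ± 0.29) and Fzd1 (9.99 ± 0.49), and 2 near background, Fzd10 (6.48 ± 0.34) and Fzd4 (6.25 ± 0.51). Wnt inhibitors and targets had 5 of 16 members high. The membrane inhibitor Apcdd1 (13.10 ± 0.09), the Dishevelled-binding Nkd2 (12.28 ± 0.24), beta-catenin, Ctnnb1 (12.21 ± 0.11), and Dkk3 (10.93 ± 0.39) led. Axin2, the negative feedback target, read 10.56, 10.20, 10.49 and 9.56, but its other probe set was higher on array 4 (0.46). Wif1, a secreted Wnt antagonist, read 9.31, 9.92, 8.81 and 4.49, a mean of 8.13 ± 2.47 and of 9.35 without array 4. Sostdc1, an antagonist of BMP and Wnt, read 9.84, 10.61, 9.17 and 7.31, and its other probe set was also lower on array 4 (-4.06). Sfrp2 read 9.96, 9.70, 8.82 and 7.21, with 9.49 without array 4. Array 4 was thus the low array in Wif1, Sostdc1 and Sfrp2. The brightest probe set of Apcdd1 was flat, but its other 5 were all lower on array 4, by -0.63 to -0.96. Sfrp4 (5.87 ± 0.14) and Dkk1 (4.53 ± 0.17) were near background on all arrays.

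In the hedgehog list 2 of 13 genes were high and 1 was near background. The co-receptor Gas1 (11.57 ± 0.07) and the transducer Smo (9.90 ± 0.23) were high, and the next were the receptor Ptch1 and the co-receptors Cdon (9.26 ± 0.18) and Boc (9.21 ± 0.42). Ptch1, itself a target of the pathway, read 9.22, 10.29, 10.22 and 7.32, with 9.91 without array 4. Its other 2 probe sets differed little on array 4 (-0.22 and -0.10). The target Gli1 read 9.60, 9.01, 9.61 and 7.49, with 9.41 without array 4. The ligand Shh was middling at 7.15 ± 0.28, and Sufu (7.08 ± 0.19) and Ihh (6.02 ± 0.32) were the lowest. The other probe set of Shh, with a mean of 3.41, was near background. In the Notch list 1 of 13 genes was high, the receptor Notch2 (11.80 ± 0.25), followed by the target Hes1 (9.38 ± 0.38), the ligand Jag1 (8.62 ± 0.66) and Notch1 (7.99 ± 0.11). The endothelial receptor Notch4 (6.05 ± 0.50) and Hey2 (5.51 ± 0.44) were the lowest.

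Growth factors had 4 of 30 members high, and 9 were near background. Gas6 (12.25 ± 0.36), the ligand of Axl, Csf1 (10.87 ± 0.30), the macrophage growth factor, Igf1 (10.85 ± 0.15) and Fgf7 (10.85 ± 0.17), a keratinocyte growth factor, were high. Fgf7 read 10.75, 10.87, 10.70 and 11.08, and Igf1 read 10.64, 10.97, 10.96 and 10.85, with no array apart in either of these probe sets. The other probe sets of Igf1 differed on array 4 in both directions, from -2.64 to 1.19. Nrg1 (4.46 ± 0.10) and Ereg (4.15 ± 0.25), ligands of the EGF receptor family, were the lowest. IGF-binding proteins had 5 of 7 members high, led by Igfbp7 (13.07 ± 0.15), Igfbp5 (12.998 ± 0.15), Igfbp3 (11.49 ± 0.48) and Igfbp6 (11.13 ± 0.48). Igfbp2 read 11.28, 11.09, 12.05 and 7.93, with 11.47 without array 4. Igfbp4 read 10.63, 10.95, 11.15 and 6.34, with a mean of 9.77 ± 2.29, or 10.91 without array 4, and each of its 6 probe sets was lower on array 4 than on the mean of the others. Both were thus among the clearest cases of a low array 4, while Igfbp1 (5.68 ± 0.17), a liver product, was near background on all arrays.

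Chemokines had 4 of 23 members high and 9 near background. Ccl11 (10.57 ± 0.16), the eosinophil attractant eotaxin, Cxcl12 (10.50 ± 0.53), the ligand of Cxcr4, Ccl8 (10.45 ± 0.73) and the neutrophil attractant Cxcl1 were high. Cxcl1 read 10.47, 11.01, 12.21 and 7.99, a mean of 10.42 ± 1.78 and of 11.23 without array 4, and all 3 of its probe sets were lower on array 4. Cxcl15 (4.70 ± 0.09) and Cxcl5 (3.70 ± 0.10) were the lowest. Cytokines stood at the other end, with none of 20 high, 17 near background and a median percentile of 20.7. Lif (7.57 ± 0.73), Osm (6.64 ± 0.27), Il18 and Il1b (6.50 ± 0.23) had the highest means. Il6 read 6.34, 5.79, 7.60 and 4.07, so array 3 was above the limit and the rest were not. Il17a (4.03 ± 0.23) of lymphocytes and Il1a (2.89 ± 0.11) were the lowest. Complement genes had 3 of 12 members high, the inhibitor Cd55 (10.77 ± 0.67) and the C1 proteases C1s1 (10.30 ± 0.52) and C1ra (10.23 ± 0.44), followed by C2 (9.56 ± 0.21). Cd46 (5.58 ± 0.36) and Cfi (3.55 ± 0.19) were the lowest.

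Receptors had 30 of 119 genes high (25.2%), 60 middling and 29 near background (24.4%), beside 10% high and 38.0% near background of all genes. Receptor tyrosine kinases had the most high members, 10 of 25, or 8 without array 4. Pdgfrb, Fgfr4 (11.40 ± 0.52), Fgfr1 (11.32 ± 0.21) and the neurotrophin receptor Ntrk3 (10.90 ± 0.67) led. Fgfr4 read 11.48, 11.27, 10.79 and 12.06, and its other 4 probe sets had means between 8.63 and 10.56. Ntrk3 was high in 1 of its 8 probe sets, and the others had means between 4.79 and 8.16. Axl (10.83 ± 0.11), Fgfr2 (10.58 ± 0.13), Egfr (10.14 ± 0.40), the collagen receptor Ddr2 (9.93 ± 0.45) and Igf1r (9.88 ± 0.47) were also high. Igf1r read 9.38, 9.79, 9.85 and 10.52, above the border of 9.88 on array 4 only. Its other probe sets had means between 7.34 and 9.10. The angiopoietin receptor Tek (4.30 ± 0.46) and the stem cell factor receptor Kit (4.21 ± 0.25) were the lowest. Of ligands and receptors that pair, Gas6 and Axl were both high, and Fgf7 and Fgfr2 were both high. Igf1 was high, and Igf1r was at the border of the high tier.

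Integrins had 3 of 23 members high, Itgb5 (11.30 ± 0.23), Itgb1 (10.26 ± 0.44), the beta chain of most matrix receptors, and the fibronectin receptor chain Itga5 (9.91 ± 0.40), with Itgav (9.80 ± 0.39) next. The epithelial Itgb6 (4.43 ± 0.28) and Itgb8 (3.04 ± 0.19) were the lowest, and the leukocyte chains Itgal, Itgb2 and Itgam lay between 4.97 and 5.78. Cytokine and pattern receptors had 23 of 24 members above the limit and 6 high. The shared receptor chain Il6st (12.20 ± 0.17), Ifnar2 (10.76 ± 0.31), Il6ra (10.69 ± 0.32) and Tnfrsf1a (10.33 ± 0.12) led, and Il15ra and Il17ra were high at 10.16 and 10.10. Il13ra2 (7.29 ± 0.21) and the lymphocyte receptor Il7r (4.45 ± 0.19) were the lowest. Near background were thus 17 of 20 cytokines and 1 of 24 receptors of this kind.

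G protein-coupled receptors had 5 of 25 members high. Lpar1 (11.22 ± 0.13), a lysophosphatidic acid receptor, Ackr3 (10.54 ± 0.52), F2r (10.32 ± 1.57) and Ackr4 (10.27 ± 1.07, or 10.79 without array 4) led, followed by Ptgfr (10.17 ± 0.07). F2r, the thrombin receptor, read 10.78, 11.34, 11.16 and 7.995, with 11.09 without array 4. Cxcr4 read 9.07, 9.20, 9.68 and 5.95, and Ptger4, a prostaglandin E receptor, read 8.07, 8.17, 8.45 and 5.07, so both were above the limit on arrays 1 to 3 and under it on array 4. Agtr2 (4.20 ± 0.45) and Ptger2 (3.93 ± 0.21) were the lowest. Nuclear receptors had 6 of 22 members high. The clock repressors Nr1d1 (11.47 ± 0.28) and Nr1d2 (10.90 ± 0.33), Rora (10.56 ± 0.16) and Thra (10.54 ± 0.10) led, the glucocorticoid receptor Nr3c1 was high at 10.10 ± 0.19, and Pgr (4.98 ± 0.22) and Rarb (4.75 ± 0.29) were the lowest.

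Most markers of each dermal layer were high, beside 10% of all genes, while those of the dermal papilla were mostly middling. In bulk samples, fewer cells of a type and less RNA per cell cannot be told apart. Of 15 papillary markers 8 were high, led by Apcdd1, Crabp1, Rspo1 (10.75 ± 0.16) and Ntn1 (10.74 ± 0.31). Crabp1, a retinoic acid binding protein, read 12.55, 12.94, 11.96 and 10.78. Dpp4, the surface marker CD26, read 10.54, 10.50, 10.56 and 10.30, and Lrig1 read 10.01, 10.43, 10.48 and 9.29. Hspb3 (5.84 ± 0.22) and Col6a5 were the lowest. Of 11 reticular and fascia markers 6 were high, led by Dpt, Cd34, Gpx3 (12.39 ± 0.67, or 12.72 without array 4) and Pi16. Dpt, Cd34 and Pi16 are also in the list of fibroblast markers, so they are counted in both lists. Mgp, matrix Gla protein, read 9.90, 9.82, 10.21 and 7.26. Dlk1 (6.29 ± 0.31), a marker of reticular fibroblasts of young skin, Sfrp4 and Plac8 (5.68 ± 0.36) were near background. The list means were 9.41, 9.43, 9.29 and 8.60 for papillary and 9.74, 9.81, 9.78 and 9.11 for reticular markers, so array 4 was the low array in both.

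None of 18 dermal papilla and sheath markers was high over the 4 arrays, and 15 were middling. Of all genes, 10% were high and 62.0% were above the limit. Array 4 was the lowest array in 15 of the 18. Itga9 (9.34 ± 0.23), Ndnf (9.31 ± 2.37), Sox18 (9.24 ± 0.40) and Sostdc1 (9.24 ± 1.41) had the highest means. Ndnf, a secreted neurotrophic factor, read 10.05, 10.92, 10.46 and 5.79 and was high without array 4 (10.48). Lef1, a Wnt effector of the papilla, read 9.68, 9.68, 9.57 and 7.70, and Tbx18, a papilla transcription factor, read 7.58, 7.49, 7.56 and 4.40. Acta2, smooth muscle actin of the sheath, read 8.52, 8.66, 10.23 and 6.81. Corin (5.66 ± 1.16) and Sox2 (5.03 ± 0.57), papilla markers used to sort these cells, were near background by their means. Corin read 6.54, 4.998, 6.75 and 4.37, above the limit on array 3. The list mean was 8.08, 8.17, 8.05 and 6.53, the largest drop on array 4 of the 58 lists. Whether array 4 held fewer follicle cells was not tested.

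**Figure D4:**
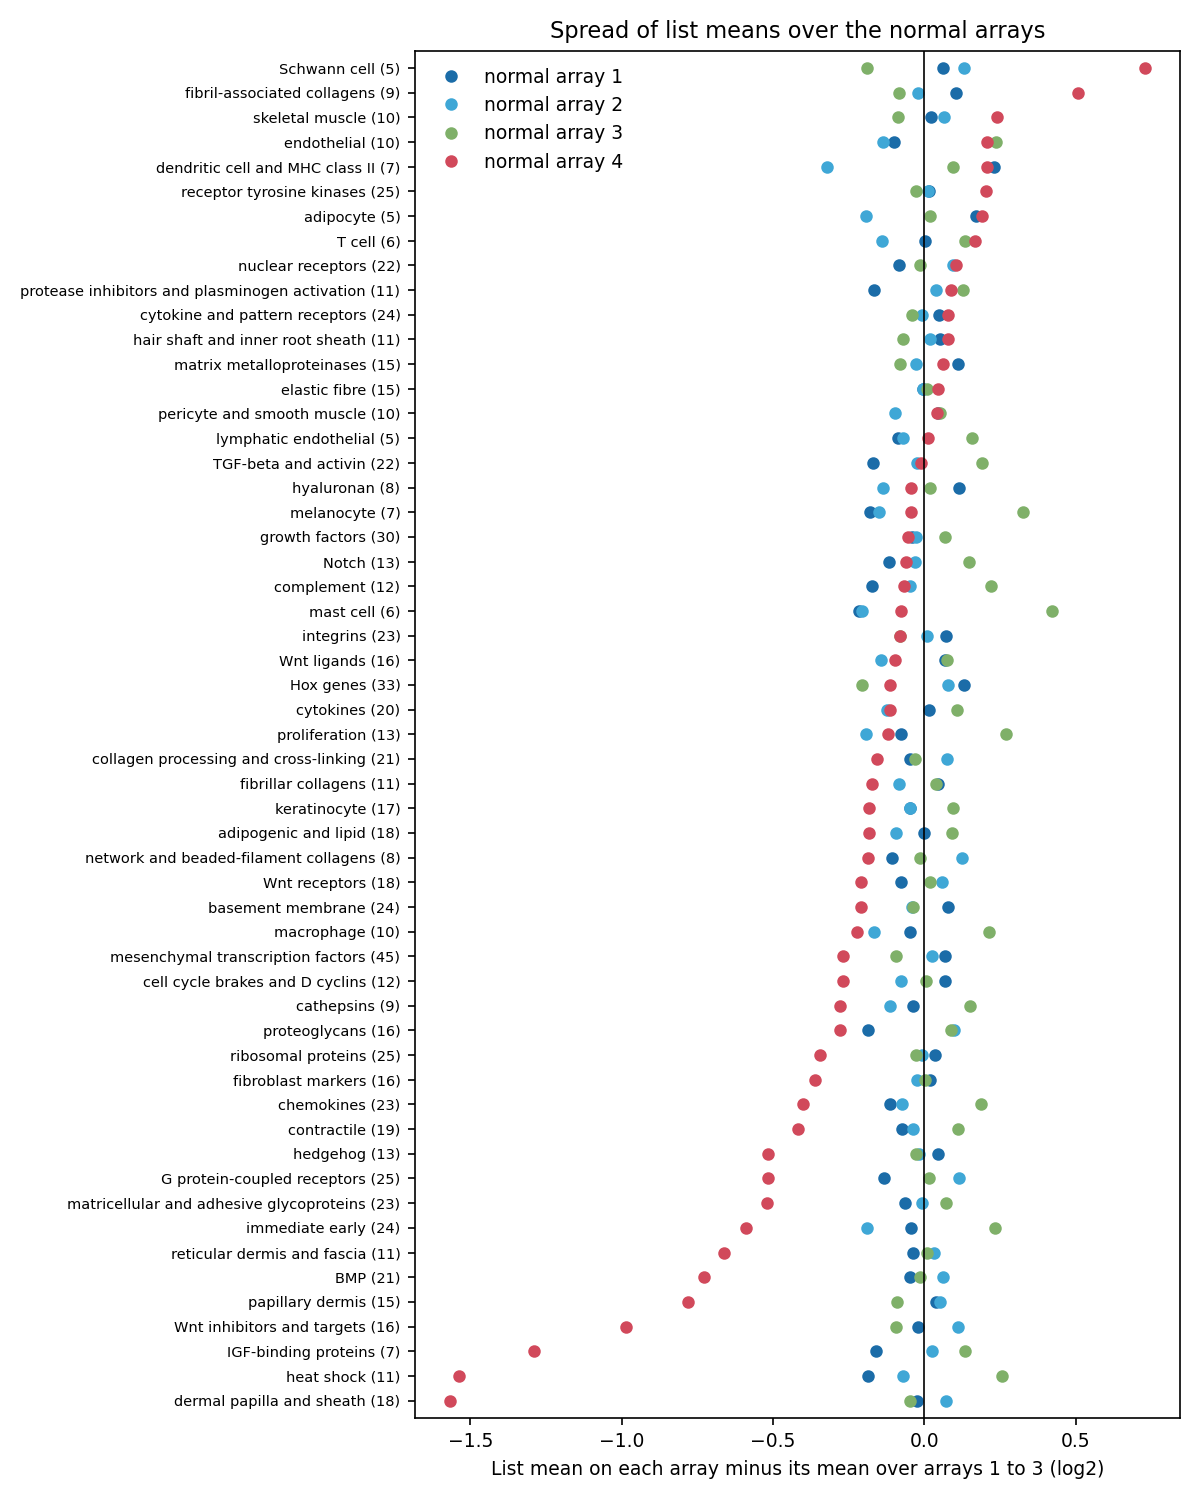
Mean of each gene list on each normal array minus its mean over arrays 1 to 3, in log2 units, with the number of genes in brackets. Lists with the fewest measured genes are left out. Array 4 lies lowest for dermal papilla (6.53 against 8.05 to 8.17), heat shock (9.54 against 10.89 to 11.33) and IGF-binding proteins (9.71 against 10.84 to 11.13). In some lists another array lies farther out, such as array 3 for mast cell markers (6.15, with 5.51, 5.52 and 5.65 on arrays 1, 2 and 4).

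Hox genes keep a record of body position. Of 33 measured genes 19 were above the limit, beside 62.0% of all genes, and the split by position is a description. Above the limit were 14 of 19 in paralogue groups 4 to 10, 3 of 7 in groups 1 to 3 and 2 of 7 in groups 11 to 13. By cluster the counts were 5 of 9 for Hoxa, 5 of 9 for Hoxb, 6 of 7 for Hoxc and 3 of 8 for Hoxd. Hoxc4 (9.92, 10.18, 9.85 and 9.99) and Hoxd8 (9.50, 9.98, 10.16 and 10.05) were high, and Hoxc8 (9.63 ± 0.71) and Hoxd9 (9.18 ± 0.21) followed. Hoxa3 read 8.83, 8.45, 6.01 and 9.09, low on array 3, and its other 3 probe sets had means between 5.63 and 6.61. Hoxb6 read 8.79, 6.63, 5.80 and 5.25, high on array 1. Hoxd10 (4.02 ± 0.14) and Hoxd1 (3.62 ± 0.66) were the lowest.

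**Figure D5:**
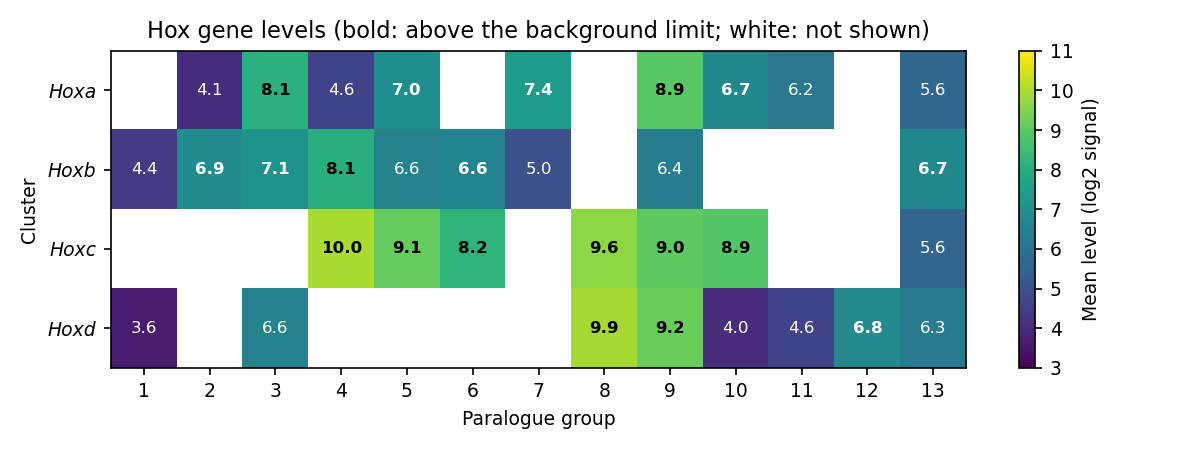
Mean log2 signal over the 4 normal arrays of each measured Hox gene, by cluster and paralogue group, with bold numbers above the limit of 6.61. Signal is highest in Hoxc4 (9.98), Hoxd8 (9.92) and Hoxc8 (9.63), and 6 of 7 measured Hoxc genes are above the limit.

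Of 45 mesenchymal transcription factors, 8 were high, 23 middling and 14 near background. Nfix, Osr2 (12.84 ± 0.38), Tcf4 (12.05 ± 0.12) and Prrx1 (11.68 ± 0.37) led, and Twist1 (11.53 ± 0.12), Zeb2 (10.85 ± 0.32), Tbx15 (10.08 ± 0.36) and Twist2 (10.01 ± 0.29), the dermal basic helix-loop-helix factor, were also high. En1, the engrailed factor of the dorsal dermal lineage, read 8.17, 8.24, 7.36 and 6.33 and crossed the limit on array 4. Foxd1 read 6.54, 7.46, 7.67 and 4.67. Six2 (4.78 ± 0.20) and Tcf21 (4.52 ± 0.25), factors of kidney and visceral mesenchyme, were the lowest.

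Among the genes of cell state, 57 of 126 were high (45.2%) and 17 were near background (13.5%), beside 10% and 38.0% of all genes. All 24 immediate early genes were above the limit, and 12 were high. These are genes that cells induce within minutes of growth factors or stress, tissue dissociation included. The subunits Jund (13.20 ± 0.09), Jun (13.11 ± 0.08) and Fos of the AP-1 factor and the phosphatase Dusp1 (13.19 ± 0.12) led, and Fos read 13.19, 12.85, 13.17 and 12.65. Egr1 read 12.62, 12.50, 12.85 and 11.95. Its relative Egr2 read 9.002, 9.35, 9.36 and 5.48, and its other probe set was also lower on array 4 (-3.78). Egr3 (7.82 ± 0.30) and Fosl1 (7.17 ± 0.41) were the lowest. The part of the digestion in these levels was not tested, since all arrays shared it.

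All 11 heat shock genes were above the limit and 8 were high, and array 4 was the lowest array in 10 of the 11. Hspa8 (12.97 ± 0.10), the constitutive chaperone, varied little in its brightest probe set, with 12.93, 12.92, 13.12 and 12.90, while its other 3 were lower on array 4 (-0.47, -0.70 and -1.28). The inducible Hspa1b read 12.53, 12.31, 12.66 and 8.69, a mean of 11.55 ± 1.91 and of 12.50 without array 4. Hspa1a, whose promoter is shown above beside that of Hspa1b, read 11.49, 11.59, 12.18 and 9.16. These near-identical copies can share hybridisation, so their levels are uncertain as separate values. The co-chaperone Dnajb1 read 11.12, 11.46, 11.66 and 9.07, and Hspb1 read 10.13, 9.05, 9.59 and 7.25. In these 4 inducible genes array 4 lay under all other arrays. Hspe1 (11.56 ± 0.35) was also among the top members, and Hspb1 (9.01 ± 1.25) and Bag3 (9.002 ± 0.73) were the lowest.

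Proliferation genes had 1 of 13 members high, the replication clamp Pcna (10.24 ± 0.54), and 5 near background. Cdk1 (7.87 ± 0.55), Ccna2 (7.71 ± 0.72) and Mcm2 (7.62 ± 0.36) were middling, Mki67 read 7.35, 7.50, 8.44 and 5.31, and Aurkb (6.03 ± 0.21) and Bub1 (4.12 ± 0.54) were the lowest. Cell cycle brakes and D cyclins had 3 of 12 members high, Gas1, Ccnd2 (10.58 ± 0.56) and the inhibitor Cdkn1b (10.28 ± 0.44), with Cdkn1a (9.26 ± 0.49) next and Cdkn2a (6.49 ± 0.26) and Rb1 (6.14 ± 0.43) the lowest. Contractile genes had 6 of 19 members high, led by the cytoplasmic Actb (13.47 ± 0.07), Myh9 (12.54 ± 0.20), Actg1 (12.31 ± 0.06) and Tpm1 (11.81 ± 0.11). The muscle genes Actg2 (6.01 ± 0.65) and Cnn1 (5.39 ± 0.32) were the lowest and the only 2 near background. Smooth muscle actin Acta2 was middling at 8.55 ± 1.40. Adipogenic and lipid genes had 6 of 18 members high, Apod (13.01 ± 0.54), Cebpb (11.13 ± 0.24), Cebpd (10.78 ± 0.19) and Lpl (10.69 ± 0.61) among them, while the adipocyte hormones Lep (4.90 ± 0.17) and Adipoq (3.64 ± 0.48) were near background. Of 25 ribosomal protein genes 21 were high, led within the list by Rplp2, Rpsa, Rpl35 and Rps20, while Rpl37 (4.45 ± 0.26) and Rps16 (4.40 ± 0.37), each read by a single probe set, were near background.

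Markers of other cell types were mostly low. Of 115 measured markers in 15 lists, 4 were high (3.48%) and 70 were near background (60.9%), beside 10% and 38.0% of all genes. The lists differed, and few members were near background in the pericyte (2 of 10), MHC class II (1 of 7) and Schwann cell lists (1 of 5). All 4 neutrophil and all 3 erythrocyte markers were near background, as were 8 of 10 endothelial, 4 of 5 lymphatic, 10 of 11 hair shaft, 5 of 6 T cell, 5 of 6 mast cell, 5 of 10 skeletal muscle and 3 of 5 adipocyte markers. The endothelial markers Pecam1 (6.44 ± 0.38) and Cdh5 (6.05 ± 0.45) read at most 6.75 on any array. Keratinocyte markers had none of 17 high and 8 middling, with Krt10 (8.61 ± 0.42), Krt5 (8.12 ± 0.30), Trp63 (7.94 ± 0.79) and Ivl (7.86 ± 0.32) at the top and Krt1 (5.13 ± 0.29) and Cdh1 (4.64 ± 0.66) the lowest. The basal keratin Krt14 was at the limit with 6.38, 6.90, 6.95 and 6.50. The keratinocyte list mean was 6.64, 6.64, 6.79 and 6.51 on arrays 1 to 4.

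The 4 high markers were Csf1r, Cd74, Kcnj8 and Ndufa4l2. Csf1r, the receptor of macrophage growth factor, read 11.75, 11.87, 11.83 and 11.55, and its other 2 probe sets had means of 9.81 and 7.97. Of the other macrophage markers Lyz2 (8.23 ± 0.47) and Cd68 (7.24 ± 0.55) were middling, and Fcgr1, C1qa, C1qb, C1qc, Mrc1, Cd163 and Adgre1 were near background with means of 4.69 to 6.32. Cd74, the invariant chain of MHC class II, read 10.62, 9.38, 10.29 and 10.94, and H2-Ab1 (9.61 ± 0.51), H2-Aa (9.37 ± 0.25) and H2-Eb1 (8.76 ± 0.46), the class II chains, were middling and also lowest on array 2. The Langerhans cell marker Cd207 (5.95 ± 0.41) was near background and Itgax (6.65 ± 0.34) at the limit. Of 10 pericyte and smooth muscle markers, 2 were high, 6 were middling and 2 were near background. Kcnj8 (11.04 ± 0.18) and Abcc9 (9.38 ± 0.22) form a potassium channel of pericytes, and Rgs5 (6.71 ± 0.43) was at the limit. The 2 near background were Mcam (6.34 ± 0.40) and Higd1b (5.22 ± 0.25). Melanocyte markers had 4 of 7 middling, Mlana (9.25 ± 0.66), Mitf (8.97 ± 0.53), Sox10 (7.45 ± 0.24) and Pmel (6.68 ± 0.22), and Tyrp1 (4.78 ± 0.33) and Tyr (4.51 ± 0.29) were near background. Schwann cell markers had 4 of 5 middling, and their mean was 7.17, 7.24, 6.92 and 7.84, highest on array 4, as were 4 of the 5 members. Mbp differed most, with 7.37, 7.51, 7.36 and 9.03, but 6 of its other 7 probe sets were lower on array 4. Most of those 7 had means near background. Whether a few cells of these types, or the fibroblasts themselves, gave these signals was not tested.

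The 15 genes above the limit with the largest SD had SDs of 1.91 to 2.55, and array 4 was the farthest array in 14 of them, the lowest in 12 and the highest in 3. They were Efhd2, Wif1, Ndnf, Stap2, F13a1, Igfbp4, Id4, Cd200, Gpt2, Ankrd24, Lipt2, Zfp949, Lrrc15, Hspa1b and Spata5l1. Efhd2, a calcium-binding protein, read 10.62, 11.33, 11.04 and 5.93. Cd200, an inhibitory surface protein, read 7.72, 7.67, 7.94 and 3.71, and F13a1, a clotting factor subunit, read 8.88, 9.22, 10.05 and 4.90. Lrrc15, a leucine-rich membrane protein of activated fibroblasts, read 8.88, 9.53, 10.29 and 5.88, and its other probe set was also lower on array 4 (-2.88). Array 4 was far under the rest in all of these. The 3 genes that were highest on array 4 were Stap2 (6.48, 7.76, 5.59 and 10.91), Lipt2 (6.01, 6.32, 5.43 and 9.78) and Spata5l1 (6.24, 6.25, 6.14 and 10.03), and the other probe set of Stap2 did not share this (-0.15). Of genes above the limit, 432 had an SD over 1, and 131 did without array 4.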

How the data were processed

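The deposited values were the authors' log2 signals, 1 per probe set and array, for 45101 probe sets of an Affymetrix mouse genome array. The submitters' processing notes name limma without a version. Probe summarisation, background correction and array scaling were steps not given in the sources used here. Precision is limited by the number of arrays. The medians of the 4 deposited columns lay between 6.61 and 6.63.

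Of the probe sets, 64 were controls, 34945 had exactly 1 symbol in the platform annotation, 932 had several and 9160 had none. Of those with 1 symbol, 34741 matched a current RefSeq gene entry. The 4 normal arrays were quantile-normalized, the probe set with the highest mean represented its gene, and means, SDs (n - 1) and ranks were taken in Python 3.11.15 with numpy 2.4.6, pandas 2.3.3 and matplotlib 3.10.9. The functions were also tested on simulated data. No pair of arrays shared more than 0.155% identical values, and all 4 were kept as separate samples.

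No comparison between groups was made and no test was run. Gene lists (58, with 957 entries of 911 symbols, 835 of them measured here) were described by their counts in the tiers. The members and lists were chosen with earlier results of these data known. Named were the 30 genes with the highest mean, the 15 most variable genes above the limit, the 10 steadiest high genes, 5 fixed markers, and of each list the 4 highest and 2 lowest, with further members as values. Alternatives were the deposited values, quantile normalization over 12 arrays, 2 other choices of probe set, 3 other background limits, a top 5% tier, and leaving out each array.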

Additional observations from a re-analysis of the deposited data

Results flagged for a closer look

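Each of 405 named genes and 58 list means was looked at for 1 array that lay far from the other 3, measured by Dixon's ratio of the gap to the whole range and read at its 95% critical value. Chance passes about 1 in 20 such groups. Past the limit were 47 of the 463, 39 of them genes and 8 lists, and array 4 was the distant array in 37. Among all 11277 genes above the background limit 886 (7.86%) passed, with array 4 distant in 626. The named genes were partly chosen for their spread, so their share is a description.

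The ratio can be large where the difference itself is small. Array 4 was the distant low array in 23 of the genes. Efhd2 read 5.93 there against a mean of 10.998 (log2) on the other 3, and Igfbp4, a binding protein of insulin-like growth factors, read 6.34 against 10.91. Ndnf read 5.79 against 10.48 and Id4, an inhibitor of bHLH factors, 6.36 against 10.48. The other 2 probe sets of Id4 did not drop (-0.16 and -0.04), but their means (6.42 and 5.81) were near background. Cd200 read 3.71 against 7.78. Heat shock gene Hspa1b read 8.69, Zfp949 read 5.35 and Egr2 read 5.48. The receptors F2r, Cxcr4 and Ptger4 read 7.995, 5.95 and 5.07, with means of 11.09, 9.32 and 8.23 on the others. The matrix and matricellular genes Ccn3 (5.50), Mgp (7.26), Spon1 (8.20), Postn (9.17), Tgm2 (7.87) and Igfbp7 (12.85, against 13.14) were also lowest there. So were the transcription factor genes Tbx18 (4.40), Lef1 (7.70), Hoxc8 (8.57) and Sox2 (4.18), together with Pcdh20 (5.47) and Adamts3 (4.07). The other probe sets of Tbx18 (0.18) and Pcdh20 (1.26) were higher there, but their means (6.18 and 6.09) were near background. Sox2 and Adamts3 were under the background limit on all arrays.

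Array 4 was far above the others for Spata5l1, at 10.03 against 6.21, and for Mbp, at 9.03 against 7.41. The proteoglycan genes Bgn (13.37, against 13.18) and Prelp (12.56), the protease gene Mmp23 (13.27), the TGF-beta co-receptor gene Tgfbr3 (12.60) and the endothelial cadherin gene Cdh5 (6.72) were highest there too. Other probe sets of the same gene were lower on array 4 for Mbp (6 of 7), Mmp23 (-1.18), Prelp (-0.16) and Cdh5 (-0.29). That of Cdh5 (mean 4.79) and most of those of Mbp were near background, so they say little on array 4.

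Another array was distant for 9 genes. Array 1 was high for Il18 (7.42) and Rb1 (6.79) and low for Tnfrsf1a (10.16). Array 2 was high for Adipoq (4.36) and Rspo1 (10.98) and low for Notch1 (7.82) and Wnt11 (7.77). Array 3 was high for Hoxd1 (4.60) and Hspa8 (13.12).

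Of the list means, array 4 was lowest for the fibroblast markers (12.24 against 12.60, although 8 of the 16 were highest and 7 lowest there), the BMP list (7.68 against 8.41), the hedgehog list (8.16 against 8.67) and the ribosomal proteins (11.68 against 12.02). The same held for papillary dermis (8.60 against 9.38), reticular dermis and fascia (9.11 against 9.78), and dermal papilla and sheath (6.53 against 8.10). Array 2 was lowest for the pericyte and smooth muscle list (8.004 against 8.15). No cause of these distances was tested.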

How the results depend on the processing

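No paired analysis was possible because no groups were compared. Under the alternatives, between 79.9% (limit at the 99th percentile of the chemosensory genes) and 99.99% (quantile normalization over 12 arrays) of the shared genes kept their tier. With that 99th percentile, 5807 genes were middling and 10567 near background, and 257 genes above the limit had an SD over 1 in place of 432. The count of such genes lay between 131 and 628 when 1 array was left out, 131 being without array 4, and was 204 with the mean of all probe sets of a gene. A high tier of the top 5% held 910 genes. Of the first 30 genes, 12 were shared under either alternative choice of probe set and 29 or 30 under each other alternative. With the mean of all probe sets of a gene, 184 of the 405 named genes moved by at least their SD, and 346 kept their tier. The levels of named genes thus depend on the choice of the brightest probe set. Of 116 counts of list members that were high or near background, 30 moved by over 1.5 times with the limit at the 99th percentile, 21 with the mean of all probe sets, 16 with the top 5% and 14 with probe sets free of shared-sequence suffixes, and at most 9 under each other alternative. The cause was not tested for probe set choice, and the others follow from where the tiers begin. No detection calls were used, so signal over background limits every statement on genes near the limit.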
